A study of Mus musculus with 12 samples.

Results

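Fatty acid uptake and beta-oxidation was followed in the mouse left ventricle through 33 listed genes, of which 31 were measured among 18193 genes with a probe set of their own. A member was represented by the probe set annotated to it alone, and by the brightest one over the 12 arrays where there were several. Acsl1, the main acyl-CoA synthetase of the heart, and Cpt1b, the muscle form of carnitine palmitoyltransferase 1, had no such probe set and have no value here. All 31 measured members passed the filter on dim probe sets (log2 signal above 4 on at least 3 of the 12 arrays), which left 10435 genes for the tests. The members cover 8 steps, from uptake to the transfer of electrons into the respiratory chain.

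The arrays came from male C57BL/6 mice operated on at 7 weeks of age, with 1 array for each of 3 animals a group. AB mice carried an aortic band, which raises the pressure load on the left ventricle, for 4 weeks. sAB mice had a sham procedure and were studied at the same time. DB3 mice had the band removed after 4 weeks and were studied 3 days later, and sDB3 mice had the sham procedures and the same 3 days. AB therefore differs from sDB3 by the band, by the second, sham operation and by 3 days. The labels give neither the tightness of the band nor a measure of heart function, and RNA came from whole left ventricle, with atria and right ventricle removed.

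The adult heart draws most of its energy from long-chain fatty acids. These enter the cardiomyocyte through membrane transporters such as CD36, are bound by cytosolic fatty acid binding proteins, activated to acyl-CoA and carried into the mitochondrion as carnitine esters, a step that malonyl-CoA inhibits. Inside, each turn of the beta-oxidation spiral runs through a dehydrogenation, a hydration, another dehydrogenation and a thiolytic cleavage that releases acetyl-CoA, and the electrons of the first reaction pass through the electron transfer flavoprotein to ubiquinone. Lower expression of these genes in the pressure-overloaded heart is a well-known part of its return towards a fetal pattern of fuel use.

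The sAB arrays stood apart on BioC, a bacterial control RNA added to each sample. It had a mean log2 signal of 10.15 to 10.51 on the sAB arrays and of 8.28 to 8.60 on the other 9. The bacterial controls BioB and BioD did not show this rise. BioB had a mean of 8.76 in sAB, 8.56 in AB, 8.44 in sDB3 and 8.49 in DB3, and its sAB arrays overlapped each other group. BioD had means of 12.37, 12.60, 12.56 and 12.59 in the same order. Its sAB arrays lay below those of AB and DB3 and overlapped those of sDB3. Results against sAB and the BioC difference cannot be told apart, so each is set beside AB against sDB3, whose arrays share a BioC level. The 3' minus 5' difference of Actb, a sign of RNA quality, was 1.02 to 1.13 in AB, 1.20 to 1.26 in sAB, 1.20 to 1.25 in sDB3 and 1.11 to 1.32 in DB3, and its part in the results was not tested. Cardiomyocyte markers were measured at high signal on every array, with Myh6 at 16.35 to 16.61. The log2 of their summed signal was 18.76 to 18.84 in AB, 18.85 to 18.87 in sAB, 18.90 to 18.93 in sDB3 and 18.83 to 18.86 in DB3. In whole tissue, fewer cells of a type and less RNA per cell cannot be told apart.

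The comparison of the banded ventricle with its shams asked which steps of fat burning change under 4 weeks of overload. Many enzymes inside the mitochondrion were lower in AB. The abundant uptake and binding genes Cd36, Fabp3 and Fabp4 did not pass with their brightest probe sets, while a dimmer one of Cd36 passed against sAB. Of the 31 members, 16 fell and 0 rose in AB against sAB (limma adjusted p under 0.05), where 7.69% of all genes tested were lower and 12% higher. Against sDB3 again 16 fell and 0 rose, where 4.69% were lower and 17.3% higher. At an unadjusted p under 0.05 there was 1 member higher in each comparison, where 2025 of all 10435 genes were higher against sAB and 2940 against sDB3. An unmoderated linear model called 0 members higher in each. Other settings did call 1 member higher, Fabp5, among them trend and robust moderation and the average of its probe sets in both comparisons, and the filter at 6 against sAB. The 13 members lower against both shams were Crat, Acadvl, Acadm, Hadha, Echs1, Acaa2, Decr1, Eci1, Eci2, Ech1, Hsdl2, Etfb and Etfdh. The comparisons share the AB arrays, so these lists are not independent. The median log2 difference over the members was -0.26 against sAB and -0.23 against sDB3, where the median of all genes was 0.012 and 0.11.

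On 17 members all 3 AB arrays lay below all 6 sham arrays, which held for 5.86% of all genes. Against sAB alone, AB did not overlap and was lower on 21 members (19% of all genes), and against sDB3 on 18 (10.5%). The falls were small, the largest being that of Hsdl2 at 1.76-fold. With 3 arrays a group the smallest p of an exact two-sided permutation test is 0.1, so the calls rest on a spread pooled over genes and groups by limma, and measure the spread between these mice.

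**Figure D1:**
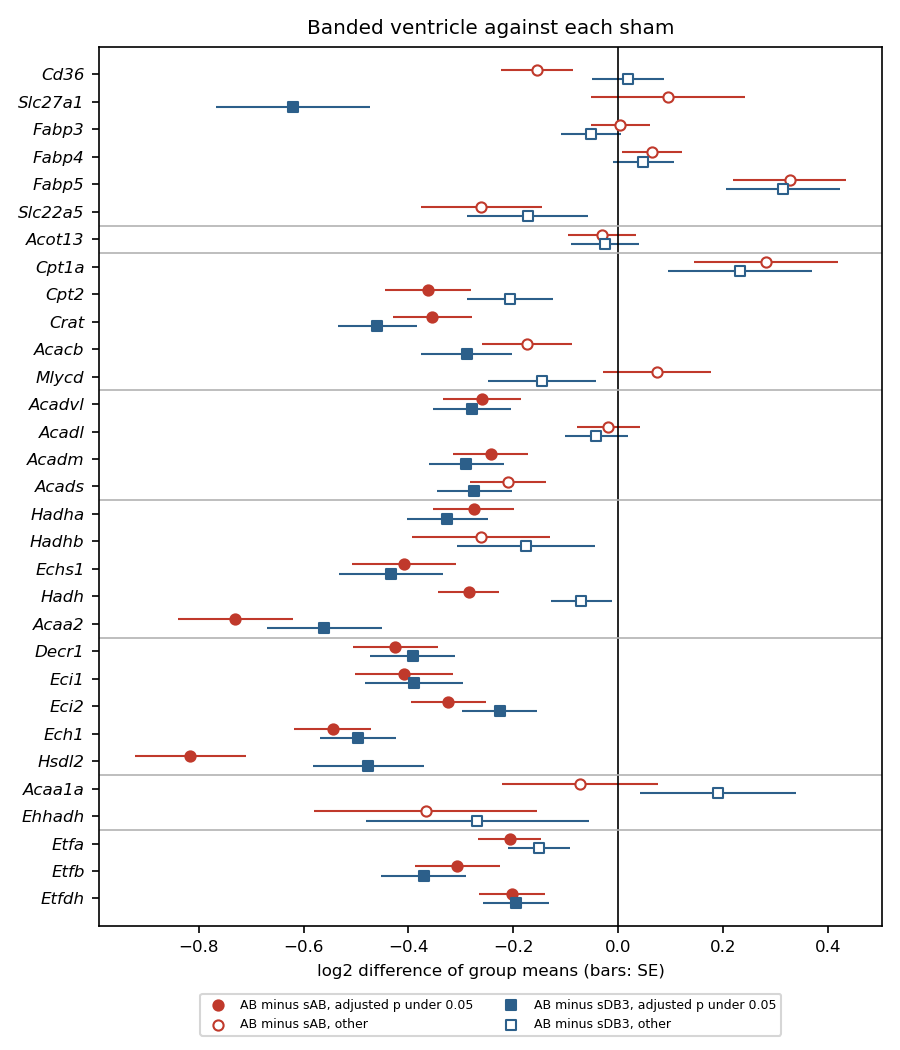
Log2 difference of group means, with its standard error, for the 31 measured members (rows, grouped by step) in AB against sAB (circles) and AB against sDB3 (squares), with filled symbols at limma adjusted p under 0.05. The 16 filled symbols of each comparison all lie left of 0, and the auxiliary enzymes from Decr1 to Hsdl2 are filled in both.

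The AB mice differed among themselves. AB mouse 1 was the highest of its group on 25 of 31 members and AB mouse 2 the lowest on 21. Leaving out AB mouse 2 or AB mouse 3 brought the members lower than sAB to 8 in either case, leaving out sAB mouse 1 to 10 and sAB mouse 3 to 9. Over all genes, the number lower than sAB went from 802 to 396, 373, 521 and 583 in these fits, in that order. Against sDB3, 6 members were lower with AB mouse 2 left out, and 8 with AB mouse 3 or with sDB3 mouse 2 left out. Over all genes, the number lower than sDB3 went from 489 to 227, 224 and 355, in that order. When only the groups compared entered the fit, 9 members fell against sAB, with Fabp5 higher, and 9 against sDB3. Over all genes these fits called 783 and 345 lower. When each array was centred on its median, 17 fell against sAB and 20 against sDB3. That centring turned the split over all genes from 1256 higher and 802 lower to 1086 and 1075 against sAB, and from 1809 and 489 to 738 and 1320 against sDB3.

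**Figure D2:**
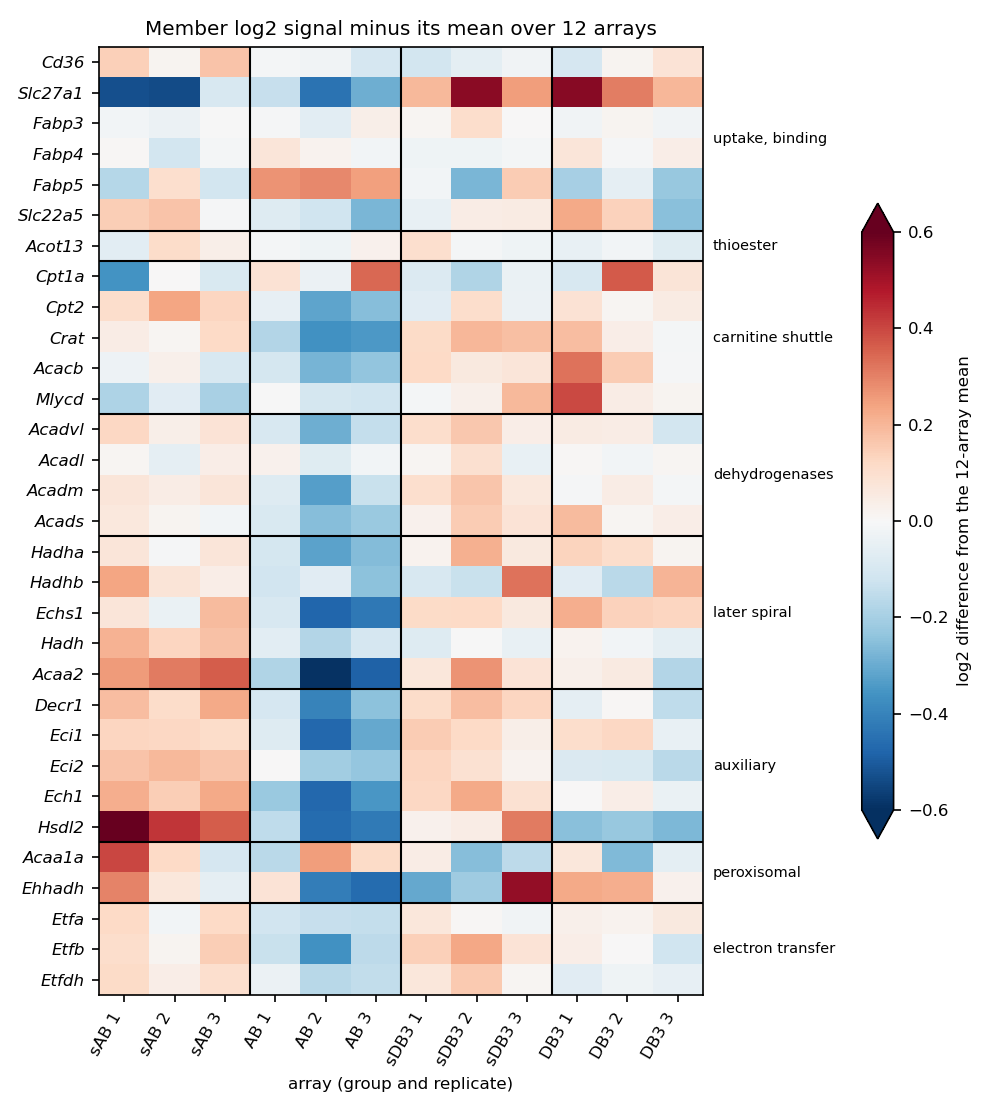
Log2 signal of each measured member minus its mean over the 12 arrays, with members in rows by step and arrays in columns by group, and with differences beyond 0.6 shown at the end of the colour scale. The AB columns are mostly blue through the mitochondrial steps, least so for AB mouse 1, and the uptake rows Fabp3 and Fabp4 stay near 0 in every column.

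Promoters of the measured members, whether or not they were lower, were read for letters shared by binding sites of nuclear receptors such as the PPAR family. That family is known to drive genes of fatty acid oxidation. The core motif AGGTCA was searched on either strand from 250 bases before to 50 after the annotated start in RefSeq promoters (GRCm38.p6). Of 31 measured members 25 were found there, with 27 promoters. The motif was in 6 of these 27 (22.2%), and in 16.3% of all 32851 promoters. The 6 belong to Acacb, Acadm, Acadvl, Cd36, Cpt1a and Echs1. Of these, Cd36 and Cpt1a did not pass in either AB comparison, and Acacb was lower against sDB3 only. The direct repeat (AGGTCA, any base, AGGTCA) and the extended core TNAAGGTCA were in 0 of 27, and in 0.0396% and 1.28% of all promoters. The 250 bases before the start are shown for Acadm, Acadvl and Echs1, which were lower in AB against both shams and hold the core motif there, and for Ech1, the member with the smallest adjusted p against sDB3, which does not. Capitals mark AGGTCA or its reverse complement TGACCT, and each sequence runs 5′ to 3′ on the gene's strand.
Acadm (chr3:153944644-153944893, minus strand): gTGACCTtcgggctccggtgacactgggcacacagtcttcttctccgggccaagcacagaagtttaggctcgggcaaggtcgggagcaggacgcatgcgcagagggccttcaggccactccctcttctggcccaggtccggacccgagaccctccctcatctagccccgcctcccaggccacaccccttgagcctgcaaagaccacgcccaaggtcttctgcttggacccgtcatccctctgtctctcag
Acadvl (chr11:70015429-70015678, minus strand): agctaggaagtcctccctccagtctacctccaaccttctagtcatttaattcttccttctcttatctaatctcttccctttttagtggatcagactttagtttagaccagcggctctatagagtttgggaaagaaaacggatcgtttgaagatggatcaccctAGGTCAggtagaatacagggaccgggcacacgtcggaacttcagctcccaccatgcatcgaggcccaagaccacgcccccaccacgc
Echs1 (chr7:140116422-140116671, minus strand): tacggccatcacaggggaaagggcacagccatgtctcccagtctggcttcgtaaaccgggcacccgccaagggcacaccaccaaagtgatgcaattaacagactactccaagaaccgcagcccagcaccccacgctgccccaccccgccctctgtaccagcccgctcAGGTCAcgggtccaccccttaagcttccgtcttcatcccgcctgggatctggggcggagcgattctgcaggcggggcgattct
Ech1 (chr7:28825088-28825337, plus strand): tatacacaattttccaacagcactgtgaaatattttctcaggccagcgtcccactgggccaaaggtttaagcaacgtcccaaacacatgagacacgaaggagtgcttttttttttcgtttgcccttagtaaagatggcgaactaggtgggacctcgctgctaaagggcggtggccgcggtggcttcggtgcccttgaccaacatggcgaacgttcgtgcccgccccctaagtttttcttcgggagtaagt
A match is a string of letters and was not tested as a site, and the window leaves out more distant elements.

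Of the 6 uptake and binding members, 0 passed in AB against sAB and 1, Slc27a1, was lower against sDB3. Cd36, the main membrane carrier of long-chain fatty acids, had log2 signals of 14.14, 14.02 and 14.17 in sAB, 13.99, 13.98 and 13.90 in AB, 13.89, 13.94 and 13.98 in sDB3 and 13.90, 14.01 and 14.08 in DB3. The AB arrays lay below those of sAB and overlapped those of sDB3. The difference was -0.15 ± 0.069, adjusted p = 0.143 against sAB and 0.019 ± 0.069, adjusted p = 0.87 against sDB3 (here and below, log2 difference ± SE with the limma adjusted p over all genes, and n = 3 a group). Further probe sets of a gene were tested in a fit of all 17817 probe sets, where another, dimmer one of Cd36 passed against sAB (-0.41, adjusted p = 0.0127) and not against sDB3 (-0.27, adjusted p = 0.0697). Fabp3, the heart type of the cytosolic fatty acid binding proteins, lay between 15.28 and 15.45 on all 12 arrays, near the top of the scale, where the highest value of any probe set was 16.61. Its difference was 0.0047 ± 0.057, adjusted p = 0.965 against sAB and -0.051 ± 0.057, adjusted p = 0.548 against sDB3. Fabp4, a family member typical of adipocytes, endothelium and macrophages, differed by 0.065 ± 0.057, adjusted p = 0.462 and 0.048 ± 0.057, adjusted p = 0.577. Its dimmer probe sets did not pass either. Against sDB3 they gave 0.04, adjusted p = 0.778, -0.68, adjusted p = 0.0948 and -0.56, adjusted p = 0.183. Against sAB they gave 0.045, adjusted p = 0.759, -0.024, adjusted p = 0.963 and -0.11, adjusted p = 0.822.

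Fabp5, the epidermal type of binding protein, had its highest values in AB. It read 11.57, 11.84 and 11.63 in sAB, 12.01, 12.03 and 11.99 in AB, 11.72, 11.47 and 11.89 in sDB3 and 11.54, 11.69 and 11.52 in DB3. The 3 AB arrays lay close together and above all arrays of the other groups. AB exceeded sAB by 0.33 ± 0.11, adjusted p = 0.0572 and sDB3 by 0.31 ± 0.11, adjusted p = 0.0607, neither of which passed in this fit. With trend and robust moderation both did, at adjusted p 0.0312 and 0.035. A dimmer probe set did pass against each sham (0.37, adjusted p = 0.0273 for sAB and 0.50, adjusted p = 0.00851 for sDB3). Fabp5 was lower in DB3 than in AB (-0.43 ± 0.11, adjusted p = 0.0347). That call was lost with DB3 mouse 1, DB3 mouse 3, AB mouse 1, AB mouse 2 or AB mouse 3 left out, highest adjusted p 0.113.

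Slc27a1 encodes the fatty acid transport protein FATP1. Its log2 signals were 8.63, 8.63 and 9.07 in sAB, 9.03, 8.72 and 8.87 in AB, 9.36, 9.70 and 9.41 in sDB3 and 9.71, 9.47 and 9.36 in DB3. AB overlapped sAB, and the arrays of sDB3 and DB3 were all above those of AB and sAB. It was higher in sDB3 than in sAB by 0.71 ± 0.15, adjusted p = 0.0107, a call kept in all 12 fits that left out 1 array and lost when only the shams were fitted (adjusted p = 0.0532). Its dimmer probe set did not pass there (0.40, adjusted p = 0.124), passed in AB against sDB3 (-0.77, adjusted p = 0.0118), and in AB against sAB had the other sign (-0.37, adjusted p = 0.147). AB was lower than sDB3, with -0.62 ± 0.15, adjusted p = 0.015 (lost with sDB3 mouse 2 or AB mouse 2 left out, highest adjusted p 0.0594), DB3 was higher than AB by 0.64 ± 0.15, adjusted p = 0.0227 (lost with DB3 mouse 1, AB mouse 2 or AB mouse 3 left out, highest adjusted p 0.096), and AB against sAB gave 0.095 ± 0.15, adjusted p = 0.694. Slc22a5, the plasma membrane carnitine transporter OCTN2, had differences of -0.26 ± 0.11, adjusted p = 0.138 against sAB and -0.17 ± 0.11, adjusted p = 0.304 against sDB3, although its AB arrays, at 8.68, 8.64 and 8.48, lay below all arrays of both shams. Its dimmer probe set passed against sDB3 (-0.65, adjusted p = 0.0155) and not against sAB (-0.43, adjusted p = 0.0754).

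For activation, with Acsl1 unmeasured, the only measured member was Acot13, a thioesterase that hydrolyses acyl-CoA back to fatty acid. It read 13.16, 13.34 and 13.27 in sAB, 13.22, 13.20 and 13.26 in AB, 13.33, 13.22 and 13.20 in sDB3 and 13.18, 13.21 and 13.16 in DB3. The groups overlapped, and the difference was -0.03 ± 0.064, adjusted p = 0.781 in AB against sAB and -0.025 ± 0.064, adjusted p = 0.809 against sDB3.

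In the carnitine shuttle, 2 of 5 measured members fell in each AB comparison. Crat, which makes acetylcarnitine and buffers mitochondrial acetyl-CoA, read 11.66, 11.62 and 11.73 in sAB, 11.44, 11.25 and 11.27 in AB, 11.73, 11.81 and 11.79 in sDB3 and 11.80, 11.65 and 11.60 in DB3. All AB arrays were below all others. Crat fell 1.28-fold against sAB (-0.35 ± 0.075, adjusted p = 0.00863) and 1.37-fold against sDB3 (-0.46 ± 0.075, adjusted p = 0.00311), and these calls held in all 12 fits that left out 1 array. Its next probe set passed in both comparisons (-0.51, adjusted p = 0.00316 and -0.55, adjusted p = 0.00332). Its dimmest one passed against sDB3 (-0.35, adjusted p = 0.0433) and not against sAB (-0.30, adjusted p = 0.0743). Cpt2, the inner-membrane transferase that remakes acyl-CoA from acylcarnitine, read 12.33, 12.46 and 12.35 in sAB, 12.17, 11.90 and 11.96 in AB, 12.15, 12.33 and 12.18 in sDB3 and 12.31, 12.23 and 12.27 in DB3. Its AB arrays were below those of sAB and overlapped sDB3 through AB mouse 1. Cpt2 fell against sAB (-0.36 ± 0.082, adjusted p = 0.0117, lost with AB mouse 2 or AB mouse 3 left out, highest adjusted p 0.0514) and did not pass against sDB3 (-0.21 ± 0.082, adjusted p = 0.0944), except after median centring (-0.36, adjusted p = 0.0195) or with AB mouse 1 left out (-0.29, adjusted p = 0.0329).

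Cpt1a, the liver form of the outer-membrane transferase that is rate-limiting for entry, had differences of 0.28 ± 0.14, adjusted p = 0.178 against sAB and 0.23 ± 0.14, adjusted p = 0.246 against sDB3. Its log2 signals were between 7.85 and 8.57, and AB overlapped sAB. Malonyl-CoA, the inhibitor of that entry, is set by a pair of members. Acacb, which synthesises malonyl-CoA at the mitochondrial surface, read 11.06, 11.12 and 11.00 in sAB, 10.99, 10.82 and 10.86 in AB, 11.21, 11.15 and 11.17 in sDB3 and 11.42, 11.24 and 11.08 in DB3. AB was below each sham without overlap. Acacb was lower against sDB3 (-0.29 ± 0.086, adjusted p = 0.0367, lost with sDB3 mouse 1, sDB3 mouse 2, sDB3 mouse 3, AB mouse 2 or AB mouse 3 left out, highest adjusted p 0.12, and at adjusted p 0.0577 in the fit without the 3 sAB arrays), and did not pass against sAB (-0.17 ± 0.086, adjusted p = 0.184). Mlycd, malonyl-CoA decarboxylase, which removes malonyl-CoA, differed by 0.075 ± 0.10, adjusted p = 0.653 against sAB and -0.15 ± 0.10, adjusted p = 0.332 against sDB3.

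The acyl-CoA dehydrogenases that open the spiral are told apart by the chain length they prefer. Acadvl, for very long chains, read 13.75, 13.66 and 13.71 in sAB, 13.53, 13.33 and 13.49 in AB, 13.73, 13.79 and 13.67 in sDB3 and 13.68, 13.68 and 13.52 in DB3. Acadm, for medium chains, read 14.11, 14.08 and 14.11 in sAB, 13.96, 13.71 and 13.91 in AB, 14.14, 14.20 and 14.10 in sDB3 and 14.03, 14.08 and 14.02 in DB3. Acads, for short chains, read 10.48, 10.43 and 10.40 in sAB, 10.33, 10.16 and 10.20 in AB, 10.44, 10.57 and 10.50 in sDB3 and 10.61, 10.43 and 10.46 in DB3. For these 3 genes every AB array was below every sham array, and AB mouse 2 was the lowest of all 12. Acadvl fell, with differences of -0.26 ± 0.074, adjusted p = 0.0326 against sAB and -0.28 ± 0.074, adjusted p = 0.0236 against sDB3. Acadm fell, with differences of -0.24 ± 0.071, adjusted p = 0.0355 and -0.29 ± 0.071, adjusted p = 0.0172. Acads fell against sDB3 (-0.27 ± 0.072, adjusted p = 0.0229) and did not pass against sAB (-0.21 ± 0.072, adjusted p = 0.0651).

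Acadl, the long-chain dehydrogenase, read 14.49, 14.42 and 14.52 in sAB, 14.50, 14.40 and 14.46 in AB, 14.49, 14.57 and 14.43 in sDB3 and 14.49, 14.46 and 14.49 in DB3. AB overlapped every other group, and the differences were -0.019 ± 0.06, adjusted p = 0.859 and -0.042 ± 0.06, adjusted p = 0.655. Acadl had a mean signal above 14, as 7 other members did, Acadm among them. Calls of this step were lost when 1 array was left out. Against sAB, Acadvl was lost with AB mouse 2, AB mouse 3, sAB mouse 1, sAB mouse 2 or sAB mouse 3 left out, highest adjusted p 0.12, and Acadm with AB mouse 2, AB mouse 3, sAB mouse 1, sAB mouse 2 or sAB mouse 3 left out, highest adjusted p 0.121. Against sDB3, Acadvl was lost with sDB3 mouse 1, sDB3 mouse 2, AB mouse 2 or AB mouse 3 left out, highest adjusted p 0.0895, Acadm with sDB3 mouse 2 or AB mouse 2 left out, highest adjusted p 0.059, and Acads with sDB3 mouse 2, AB mouse 2 or AB mouse 3 left out, highest adjusted p 0.0847. These 5 calls were also lost when only the groups compared were fitted, at adjusted p from 0.0507 to 0.0813.

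The later reactions of the spiral fell in 4 of 5 members against sAB and in 3 of 5 against sDB3. Acaa2, the mitochondrial thiolase that splits off acetyl-CoA, read 13.24, 13.30 and 13.35 in sAB, 12.80, 12.39 and 12.50 in AB, 13.05, 13.25 and 13.06 in sDB3 and 13.02, 13.04 and 12.81 in DB3. All AB arrays were below all others, and all DB3 arrays below all sDB3 arrays. Acaa2 fell 1.66-fold against sAB (-0.73 ± 0.11, adjusted p = 0.00153) and 1.47-fold against sDB3 (-0.56 ± 0.11, adjusted p = 0.00666). The call held in all 12 fits without 1 array in either comparison, and its 3 probe sets passed in both (-0.79, adjusted p = 0.000612 and -0.90, adjusted p = 0.00104 for the others against sAB).

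Echs1, the short-chain enoyl-CoA hydratase, read 12.73, 12.62 and 12.85 in sAB, 12.56, 12.18 and 12.23 in AB, 12.78, 12.78 and 12.72 in sDB3 and 12.88, 12.80 and 12.79 in DB3. AB was below every other array, and AB mouse 2 and AB mouse 3 were well below AB mouse 1. It fell 1.33-fold against sAB (-0.41 ± 0.099, adjusted p = 0.0168, lost with AB mouse 2, AB mouse 3 or sAB mouse 3 left out, highest adjusted p 0.0699) and 1.35-fold against sDB3 (-0.43 ± 0.099, adjusted p = 0.0131, lost with AB mouse 2 or AB mouse 3 left out, highest adjusted p 0.0565). Hadha, which carries the hydratase and dehydrogenase of the trifunctional protein for long chains, read 13.35, 13.27 and 13.35 in sAB, 13.17, 12.96 and 13.02 in AB, 13.30, 13.49 and 13.34 in sDB3 and 13.41, 13.38 and 13.29 in DB3. Its AB arrays were below all others too. It fell, with a difference of -0.28 ± 0.077, adjusted p = 0.0303 against sAB (lost with AB mouse 2, AB mouse 3, sAB mouse 1 or sAB mouse 3 left out, highest adjusted p 0.112) and of -0.33 ± 0.077, adjusted p = 0.0151 against sDB3 (lost with sDB3 mouse 2, AB mouse 2 or AB mouse 3 left out, highest adjusted p 0.0609).

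Hadhb, the thiolase subunit of the same trifunctional protein, did not pass with its brightest probe set (-0.26 ± 0.13, adjusted p = 0.189 against sAB and -0.18 ± 0.13, adjusted p = 0.361 against sDB3). On it AB lay below sAB without overlap and overlapped sDB3. Its next probe set did pass (-0.42, adjusted p = 0.00703 and -0.41, adjusted p = 0.0104). Hadh, the dehydrogenase for medium and short chains, read 15.09, 15.01 and 15.06 in sAB, 14.82, 14.71 and 14.78 in AB, 14.80, 14.88 and 14.84 in sDB3 and 14.90, 14.86 and 14.82 in DB3. Here sAB was above every other array, and AB overlapped sDB3. Hadh fell against sAB (-0.28 ± 0.058, adjusted p = 0.00708) and did not pass against sDB3 (-0.07 ± 0.058, adjusted p = 0.414). A second, dimmer probe set passed in both comparisons (-0.51, adjusted p = 0.00139 and -0.40, adjusted p = 0.0075). The names of the probe sets used for Hadhb, Hadh and Acaa1a end in x_at, the suffix Affymetrix gives to sets whose probes may match other transcripts.

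**Figure D3:**
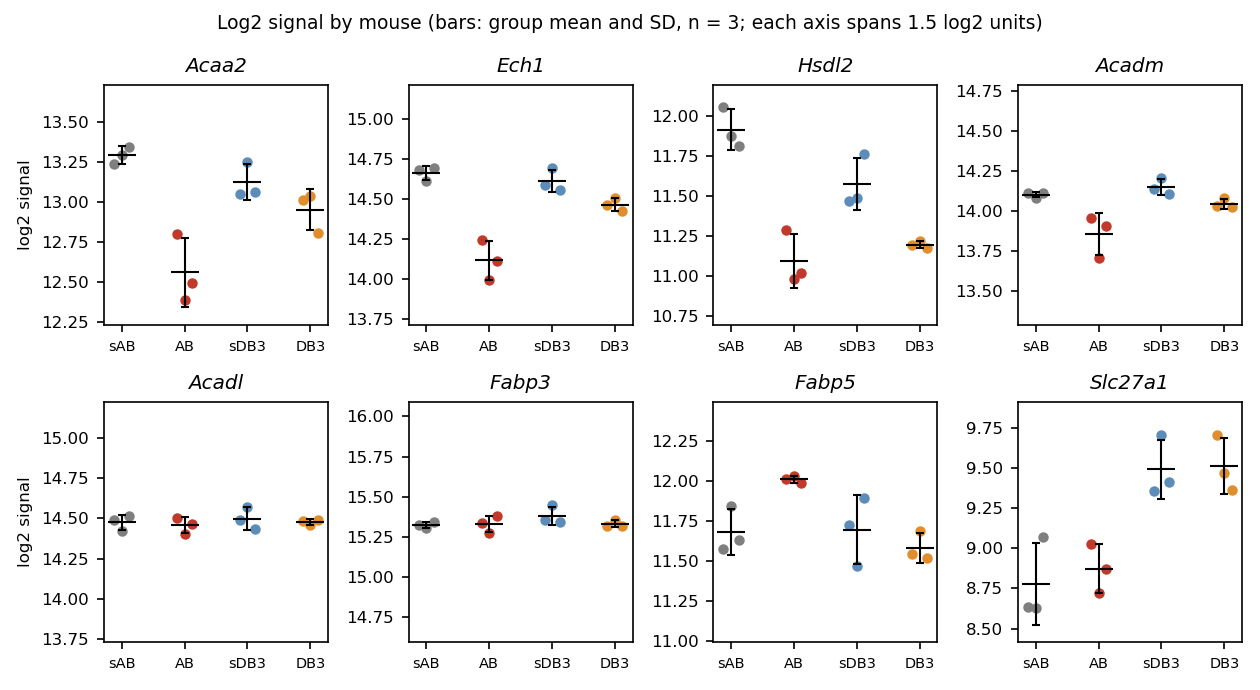
Log2 signal of 8 members in each mouse (points) by group, with the group mean and SD (n = 3), on axes that each span 1.5 log2 units. Acaa2, Ech1, Hsdl2 and Acadm are lowest in AB, Acadl and Fabp3 are level across the groups, Fabp5 is highest in AB, and Slc27a1 is high in sDB3 and DB3.

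All 5 members listed as auxiliary enzymes fell against each sham. Decr1, Eci1, Eci2 and Ech1 bring unsaturated acyl chains into the spiral, and Hsdl2 was only listed with them. Ech1, a dienoyl-CoA isomerase, read 14.68, 14.61 and 14.69 in sAB, 14.24, 13.99 and 14.11 in AB, 14.59, 14.69 and 14.55 in sDB3 and 14.46, 14.50 and 14.42 in DB3. AB lay below all other arrays. Ech1 fell 1.46-fold against sAB (-0.54 ± 0.073, adjusted p = 0.000803) and 1.41-fold against sDB3 (-0.50 ± 0.073, adjusted p = 0.0018). Hsdl2, a short-chain dehydrogenase of the hydroxysteroid dehydrogenase-like type, read 12.05, 11.87 and 11.81 in sAB, 11.29, 10.98 and 11.02 in AB, 11.47, 11.49 and 11.76 in sDB3 and 11.19, 11.22 and 11.17 in DB3. The sAB arrays were above all others, and AB overlapped DB3. It fell 1.76-fold against sAB (-0.82 ± 0.11, adjusted p = 0.000695) and 1.39-fold against sDB3 (-0.48 ± 0.11, adjusted p = 0.0115). The sham groups differed as well (-0.34 ± 0.11, adjusted p = 0.0493 for sDB3 against sAB), a call lost in 10 of the 12 fits that left out 1 array, highest adjusted p 0.144.

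Decr1, the mitochondrial dienoyl-CoA reductase, read 12.93, 12.86 and 12.97 in sAB, 12.64, 12.34 and 12.50 in AB, 12.85, 12.93 and 12.87 in sDB3 and 12.69, 12.75 and 12.59 in DB3. All AB arrays were below all sham arrays. It fell against each sham, with differences of -0.42 ± 0.081, adjusted p = 0.00511 and -0.39 ± 0.081, adjusted p = 0.00847, and so did a dimmer probe set, with -0.86, adjusted p = 0.00187 and -0.63, adjusted p = 0.0111. Eci1, an enoyl-CoA isomerase that moves double bonds, read 12.66, 12.66 and 12.65 in sAB, 12.46, 12.06 and 12.23 in AB, 12.69, 12.65 and 12.57 in sDB3 and 12.64, 12.66 and 12.49 in DB3. It fell, with differences of -0.41 ± 0.093, adjusted p = 0.0125 and -0.39 ± 0.093, adjusted p = 0.016, with AB below all other arrays. Eci2, the related isomerase found in mitochondria and peroxisomes, read 11.62, 11.64 and 11.62 in sAB, 11.45, 11.24 and 11.22 in AB, 11.57, 11.54 and 11.47 in sDB3 and 11.36, 11.36 and 11.28 in DB3. It fell, with differences of -0.32 ± 0.071, adjusted p = 0.0103 and -0.23 ± 0.071, adjusted p = 0.0455, with AB mouse 1 just below the lowest sham array. The calls of Ech1, Hsdl2 and Decr1 held in all 12 fits without 1 array in either comparison, and that of Eci1 against sAB did. The others were lost, Eci1 against sDB3 with AB mouse 2 or AB mouse 3 left out, highest adjusted p 0.0571, Eci2 against sAB with AB mouse 3 left out, highest adjusted p 0.05, and Eci2 against sDB3 in 11 of the 12 fits that left out 1 array, highest adjusted p 0.163.

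The peroxisomal members did not pass. Ehhadh, the peroxisomal bifunctional enzyme, read 7.41, 7.18 and 7.06 in sAB, 7.20, 6.70 and 6.65 in AB, 6.81, 6.90 and 7.64 in sDB3 and 7.34, 7.33 and 7.14 in DB3. Its arrays spread widely within sDB3 and AB, and the difference was -0.37 ± 0.21, adjusted p = 0.254 against sAB and -0.27 ± 0.21, adjusted p = 0.389 against sDB3. Acaa1a, the peroxisomal thiolase, differed by -0.073 ± 0.15, adjusted p = 0.771 and 0.19 ± 0.15, adjusted p = 0.383, and its close copy Acaa1b may share the signal.

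Electron transfer fell in all 3 members against sAB and in 2 against sDB3. Etfb, the beta subunit of the electron transfer flavoprotein that takes electrons from the acyl-CoA dehydrogenases, read 12.98, 12.89 and 13.02 in sAB, 12.75, 12.51 and 12.72 in AB, 13.02, 13.11 and 12.96 in sDB3 and 12.92, 12.88 and 12.76 in DB3. AB was below all other arrays. It fell, with a difference of -0.31 ± 0.081, adjusted p = 0.0235 against sAB (lost with AB mouse 2, sAB mouse 1 or sAB mouse 3 left out, highest adjusted p 0.0885) and of -0.37 ± 0.081, adjusted p = 0.0108 against sDB3, where the call held in all 12 fits without 1 array. Etfa, the alpha subunit, read 14.22, 14.08 and 14.22 in sAB, 13.99, 13.96 and 13.96 in AB, 14.17, 14.11 and 14.08 in sDB3 and 14.13, 14.12 and 14.16 in DB3. Its AB arrays lay close together and below all others. Etfa fell against sAB (-0.21 ± 0.059, adjusted p = 0.0335, lost with AB mouse 1, AB mouse 2, AB mouse 3, sAB mouse 1 or sAB mouse 3 left out, highest adjusted p 0.103) and did not pass against sDB3 (-0.15 ± 0.059, adjusted p = 0.0941). Etfdh, which passes the electrons to ubiquinone, read 13.45, 13.38 and 13.44 in sAB, 13.30, 13.17 and 13.19 in AB, 13.40, 13.50 and 13.35 in sDB3 and 13.27, 13.31 and 13.29 in DB3. AB was below both shams. The calls were close to the threshold (-0.20 ± 0.063, adjusted p = 0.0461 and -0.20 ± 0.063, adjusted p = 0.0483). Against sAB the call was lost in 9 of the 12 fits that left out 1 array, highest adjusted p 0.145, and against sDB3 in 10 of the 12 fits that left out 1 array, highest adjusted p 0.149. A dim second probe set of Etfdh, at a mean signal of 4.08, gave 0.20, adjusted p = 0.524 against sAB, in the other direction.

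Of the 15 members with more than 1 tested probe set, 0 had probe sets passing in opposite directions in an AB comparison. The direction was the same for all tested probe sets in 10 of the 15 against sAB and in 12 against sDB3.

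Relief of the load for 3 days was examined by setting DB3 against sDB3 and against AB. Against its own sham, 0 of 31 members were called higher or lower by limma, where 5.37% of all genes were higher and 0.997% lower. At an unadjusted p under 0.05 there were 3 members lower and 0 higher, where 489 of all 10435 genes were lower and 2210 higher. An unmoderated linear model called 0 members. The median log2 difference was -0.021, where the median of all genes was 0.091. The lowest was Hsdl2 (-0.38 ± 0.11, adjusted p = 0.0603), followed by Decr1 (-0.21 ± 0.081, adjusted p = 0.143), Eci2 (-0.19 ± 0.071, adjusted p = 0.127) and Etfb (-0.18 ± 0.081, adjusted p = 0.197). On 8 members all DB3 arrays lay below all sDB3 arrays (5.74% of all genes). These were Acadm, Acaa2, Decr1, Eci2, Ech1, Hsdl2, Etfb and Etfdh. After median centring 3 members were lower (Decr1, Eci2 and Hsdl2, at adjusted p 0.0487, 0.0406 and 0.0386), where the split over all genes turned from 560 higher and 104 lower to 127 and 348.

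Against AB, 8 members were higher in DB3 and 1 lower, where 4.04% of all genes were higher and 5.12% lower. The higher members were Slc27a1, Crat, Acacb, Acads, Hadha, Echs1, Eci1 and Ech1, and the lower one Fabp5. Echs1 was 1.41-fold higher (0.50 ± 0.099, adjusted p = 0.0128), Crat 1.29-fold (0.37 ± 0.075, adjusted p = 0.0146), Ech1 1.27-fold (0.35 ± 0.073, adjusted p = 0.0161), and Hadha 1.24-fold (0.31 ± 0.077, adjusted p = 0.0315). Acacb differed by 0.36 ± 0.086, adjusted p = 0.0278, Acads by 0.27 ± 0.072, adjusted p = 0.0436 and Eci1 by 0.35 ± 0.093, adjusted p = 0.0425. Acaa2 just missed the threshold (0.39 ± 0.11, adjusted p = 0.0505). In the fit of all probe sets, a dimmer one passed for Acaa2 (0.41, adjusted p = 0.0365) and for Cd36 (0.38, adjusted p = 0.0359). The next probe set of Hadhb passed too (0.37, adjusted p = 0.027). In that fit Acads (0.27, adjusted p = 0.051) and the dimmer probe set of Slc27a1 (0.59, adjusted p = 0.057) did not pass. Nor did the dimmer probe sets of Crat (0.22, adjusted p = 0.158 and 0.15, adjusted p = 0.453). On 15 members all DB3 arrays lay above all AB arrays (14.7% of all genes), and 27 of 31 had a higher mean in DB3, with a median log2 difference of 0.18 (all genes -0.017). Hsdl2 (0.099 ± 0.11, adjusted p = 0.617), Eci2 (0.033 ± 0.071, adjusted p = 0.826) and Etfdh (0.069 ± 0.063, adjusted p = 0.545) did not pass.

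The number of calls in DB3 against AB changed when 1 array was left out. With AB mouse 2 or AB mouse 3 left out, 0 of 31 members passed, at a median log2 difference over the members of 0.12 and 0.19. Over all genes these fits called 159 higher and 248 lower, and 149 and 216, where the full fit called 422 and 534. With DB3 mouse 1 left out 3 members passed, and with DB3 mouse 2 left out 5. Over all genes the calls were then 252 higher and 356 lower, and 306 and 426. In the fit without the 3 sAB arrays 5 passed, Slc27a1, Fabp5, Crat, Echs1 and Ech1, and with only DB3 and AB in the fit 2 passed, Slc27a1 and Fabp5. DB3 also differs from AB by the second operation and 3 days.

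**Figure D4:**
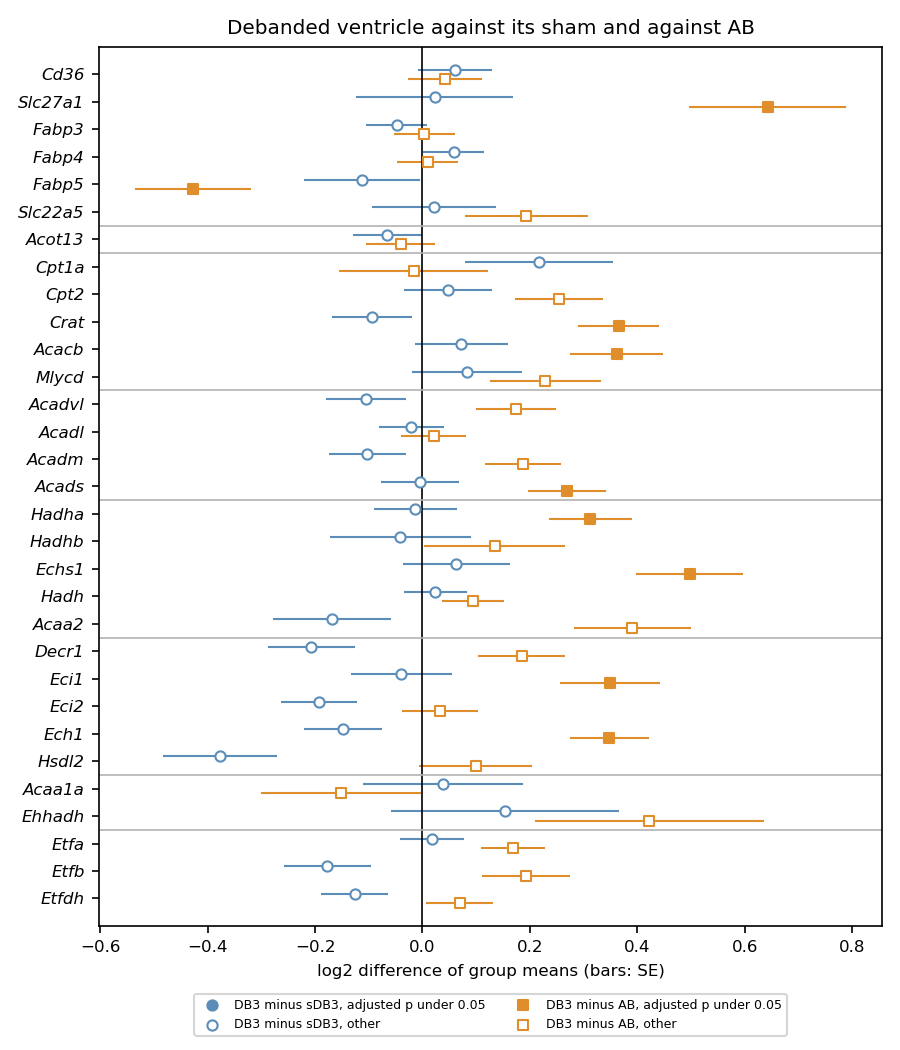
Log2 difference of group means, with its standard error, for the 31 measured members in DB3 against sDB3 (circles) and DB3 against AB (squares), with filled symbols at limma adjusted p under 0.05. No circle is filled, and 8 of the 9 filled squares lie right of 0, with Fabp5 to the left.

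Whether the effect of banding differed from what was left after debanding was tested as a contrast. The difference of effects, AB minus sAB less DB3 minus sDB3, passed for 1 member, Ech1 (-0.40 ± 0.10, adjusted p = 0.0489), where 3.45% of all genes were lower and 2.59% higher. The median over members was -0.22 (all genes -0.069). The call of Ech1 was lost in 11 of the 12 fits that left out 1 array, highest adjusted p 0.108, and after median centring 0 members passed. In the fit of all probe sets Ech1 did not pass (-0.40, adjusted p = 0.0552). Dimmer probe sets of Acaa2 (-0.63, adjusted p = 0.0354 and -0.71, adjusted p = 0.0487) and of Cd36 (-0.52, adjusted p = 0.0495) did pass there. That contrast contains sAB.

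The shams differed from each other on few members. In sDB3 against sAB 1 was higher (Slc27a1) and 2 were lower (Hadh, -0.21 ± 0.058, adjusted p = 0.0301, and Hsdl2), where 5.49% of all genes were higher and 12.3% lower. The median over members was -0.0055, where that of all genes was -0.094. The call of Hadh was lost with sDB3 mouse 1, sDB3 mouse 2, sDB3 mouse 3, sAB mouse 1, sAB mouse 2 or sAB mouse 3 left out, highest adjusted p 0.0817. With sDB3 mouse 1, sDB3 mouse 2 or any 1 sAB mouse left out, only Slc27a1 passed of the members, and 0 passed when the shams alone were fitted.

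Other genes of fatty acid metabolism were counted by role. Among 17 tested genes of mitochondrial entry, activation and lipid uptake, 1 rose and 5 fell against sAB and 2 rose and 5 fell against sDB3. The largest difference against sDB3 was upward, 0.77 for Acsl5, an acyl-CoA synthetase. Acsl5 read 8.54, 8.93 and 9.24 in sAB, 9.24, 9.11 and 9.33 in AB, 8.48, 8.31 and 8.58 in sDB3 and 8.87, 8.95 and 8.75 in DB3. Its AB arrays were above those of sDB3 and overlapped sAB. Slc25a20, the carnitine-acylcarnitine carrier of the inner membrane, differed by -0.74 ± 0.096, adjusted p = 0.000701 and -0.48 ± 0.096, adjusted p = 0.00735, Acadsb, the short and branched chain dehydrogenase, by -0.66 ± 0.11, adjusted p = 0.00267 and -0.57 ± 0.11, adjusted p = 0.00616, and Hsd17b10, a hydroxyacyl-CoA dehydrogenase, by -0.35 ± 0.062, adjusted p = 0.00387 and -0.37 ± 0.062, adjusted p = 0.0035. In DB3 against AB, Acadsb (0.71 ± 0.11, adjusted p = 0.00469) and Hsd17b10 (0.32 ± 0.062, adjusted p = 0.0118) were higher. Slc25a20 did not pass there (0.14 ± 0.096, adjusted p = 0.397), and in DB3 against sDB3 its difference of -0.33 ± 0.096, adjusted p = 0.0635 was the lowest of these genes. Of 13 tested peroxisomal genes 1 rose and 3 fell against sAB, and 0 rose and 1 fell against sDB3. The latter was Abcd3, a peroxisomal transporter (-0.30 ± 0.077, adjusted p = 0.0212 against sAB and -0.25 ± 0.077, adjusted p = 0.0438 against sDB3).

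Of 11 thioesterases and acyl-CoA binding proteins 2 rose and 1 fell against sAB, and 2 rose and 2 fell against sDB3. Acot1, the cytosolic long-chain thioesterase known as a PPAR-alpha target, read 7.80, 7.99 and 8.27 in sAB, 6.63, 5.79 and 6.22 in AB, 7.85, 8.03 and 8.42 in sDB3 and 7.68, 8.09 and 7.18 in DB3. AB was below every other array, and the difference was 3.5-fold against sAB (-1.81 ± 0.26, adjusted p = 0.00121) and 3.71-fold against sDB3 (-1.89 ± 0.26, adjusted p = 0.00131), larger than the difference of any of the 31 members in these comparisons. Acot1 has a near-identical neighbour, Acot2, so the split of signal between them is uncertain. The Acot2 probe set had means of 10.00 in sAB, 10.22 in AB, 10.60 in sDB3 and 10.40 in DB3. Acot9, a mitochondrial thioesterase, rose against each sham (0.30 ± 0.067, adjusted p = 0.0109 and 0.39 ± 0.067, adjusted p = 0.00356).

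Of 17 regulators 1 rose and 0 fell in AB against sAB, and 0 rose and 2 fell against sDB3. Ppargc1a, the coactivator of mitochondrial gene expression, read 10.37, 10.28 and 10.16 in sAB, 9.91, 9.60 and 9.74 in AB, 11.68, 11.01 and 10.25 in sDB3 and 10.33, 10.15 and 10.19 in DB3. AB was lower than sDB3 (-1.23 ± 0.27, adjusted p = 0.0107), and did not pass against sAB (-0.52 ± 0.27, adjusted p = 0.204). Ppara, the nuclear receptor for fatty acids in the heart, differed by -0.27 ± 0.23, adjusted p = 0.459 against sAB and -0.69 ± 0.23, adjusted p = 0.0574 against sDB3. Klf15, a factor of cardiac lipid metabolism that responds to glucocorticoids, was lower in AB than in sDB3 (-0.84 ± 0.18, adjusted p = 0.0101), higher in DB3 than in AB (1.28 ± 0.18, adjusted p = 0.00318), and higher in sDB3 than in sAB (0.70 ± 0.18, adjusted p = 0.0259). Its means were 8.49 in sAB, 8.35 in AB, 9.19 in sDB3 and 9.63 in DB3, and AB did not pass against sAB. Ppard, a receptor of the same family as Ppara, was higher in AB than in sAB (1.15 ± 0.098, adjusted p = 6.93e-05) and higher in sDB3 than in sAB (0.91 ± 0.098, adjusted p = 0.00051), with AB against sDB3 at 0.24 ± 0.098, adjusted p = 0.0986.

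Set beside other energy pathways, 16 of 31 members (51.6%) were lower in each AB comparison. Of 16 citrate cycle genes 7 were lower against sAB and 3 against sDB3, with medians of -0.20 and -0.14. Of 43 complex I subunits and assembly factors 1 rose in each comparison and 5 and 4 fell, with medians of -0.091 and -0.083. Of 16 glycolysis genes 5 rose and 0 fell against sAB, and 2 rose and 2 fell against sDB3, with medians of 0.15 and 0.019. The difference between these groups of genes was not tested.

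**Figure D5:**
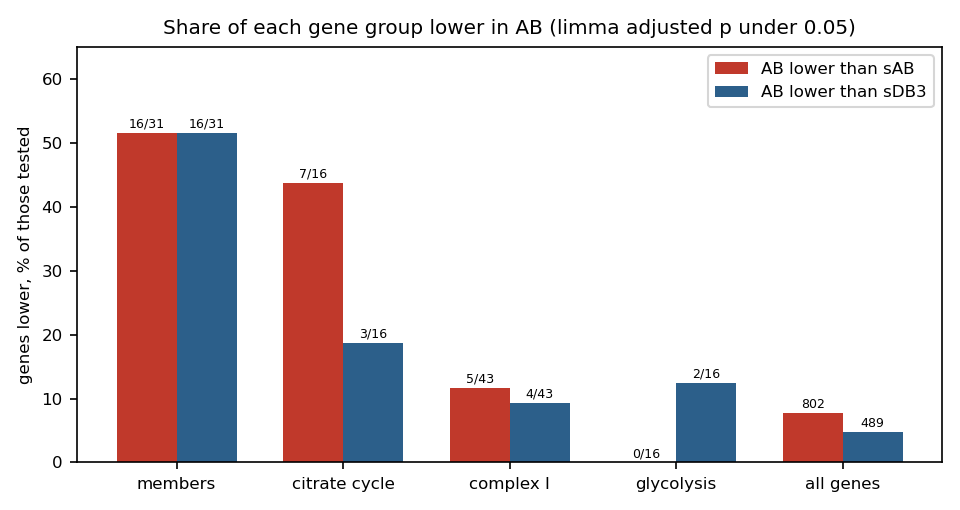
Share of each gene group, in percent of its tested genes, that was lower in AB against sAB and against sDB3 at limma adjusted p under 0.05, with counts above the bars. The members reach 51.6% in both comparisons, against 7.69% and 4.69% of all genes.

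Markers of other cells that the tissue holds moved in part with the groups, and their part in the falls of the members was not tested. The log2 of the summed signal of 11 endothelial markers was 13.32 to 13.41 in AB, 13.22 to 13.26 in sAB, 13.01 to 13.12 in sDB3 and 13.13 to 13.23 in DB3, and 2 and 7 of 11 were higher in AB against sAB and sDB3. That of 8 fibroblast markers was 14.77 to 15.25 in AB, 14.31 to 15.18 in sAB, 14.43 to 14.54 in sDB3 and 14.41 to 15.03 in DB3, with 2 and 0 higher. That of 6 smooth muscle and pericyte markers was 14.06 to 14.16 in AB, 13.94 to 14.02 in sAB, 13.83 to 13.99 in sDB3 and 14.09 to 14.15 in DB3, with 3 and 2 higher. Of 11 macrophage markers limma called 0 in either AB comparison, with 0 and 1 at an unadjusted p under 0.05, and their sum was 12.98 to 13.20 in AB, 12.94 to 14.03 in sAB, 12.81 to 13.13 in sDB3 and 13.03 to 13.14 in DB3. Cardiomyocyte markers had 1 higher and 0 lower of 10 against sAB and 0 higher and 2 lower against sDB3, with median differences of -0.030 and -0.10.

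The atrial and skeletal muscle lists each hold a gene of the fetal program that rises in overloaded ventricle. Nppa, atrial natriuretic peptide, had a mean of 15.10 in AB, 12.71 in sAB, 13.03 in sDB3 and 13.94 in DB3, and skeletal actin Acta1 one of 15.09, 13.78, 13.39 and 14.52. Of the 4 atrial markers tested only Nppa passed in AB against either sham, and Bmp10 was at the floor of 2.23 on all arrays. The atrial light chain Myl7 ranged from 4.67 to 12.97, with means of 8.52 in sAB, 10.99 in AB, 11.83 in sDB3 and 8.95 in DB3. The atrial sum was 15.16 to 15.50 in AB, 12.85 to 12.98 in sAB, 13.43 to 14.59 in sDB3 and 13.73 to 14.90 in DB3. The skeletal muscle sum was 14.98 to 15.16, 13.62 to 14.10, 12.91 to 13.69 and 14.24 to 14.78 in the same order, and 5 of its 7 markers stayed below the filter on dim probe sets. Of 5 adipocyte markers with a probe set Lep was at the floor on all arrays, Cidec and Retn stayed below that filter, and Adipoq spread from 2.28 to 6.50. Car3, the brightest of them, spread from 3.04 to 9.95, with means of 5.16 in AB, 6.78 in sAB, 7.89 in sDB3 and 6.87 in DB3. It did not pass in AB against sAB (limma adjusted p = 0.49) or sDB3 (adjusted p = 0.217). The adipocyte sum was 4.91 to 7.10 in AB, 5.68 to 8.08 in sAB, 7.04 to 8.69 in sDB3 and 4.77 to 10.09 in DB3.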

How the data were processed

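Total RNA (3 µg) from left ventricle was hybridised as biotin-labelled cRNA to Affymetrix arrays, per the labels' protocols. The authors deposited log2 signals per probe set, made with GCRMA per the submitters' processing notes. The version and settings of GCRMA are not stated in the labels. Of 45101 probe sets, 34945 carry 1 gene symbol in the platform annotation, and 34741 of these were found by gene ID in the RefSeq gene table. Probe sets with log2 above 4 on at least 3 of 12 arrays were tested, 1 a gene by the highest mean. Limma 3.58.1 in R 4.3.3 (lmFit, eBayes) fitted the 4 groups in 1 model with 8 residual and 2.68 prior degrees of freedom. P-values are two-sided and Benjamini-Hochberg adjusted over 10435 genes. The fit was also run on simulated data with noise drawn independently for each gene. Shifts that the genes of an array share were not simulated, so that run does not bear on them. The members and lists were chosen with earlier results of these data known. Per-array values are given for members called in at least 1 of 6 comparisons and, in a step without one, for its brightest member; those of Cd36, Acadl and, in part, Slc22a5 were added after their values were seen. Alternatives were the dim filter, the choice of probe set, the scaling, the moderation, the arrays in the fit, and each array left out. Mice are numbered in accession order, which pairs nothing. The number of arrays limits the precision. Near the floor and the top of the scale, log2 differences can understate a change in RNA. Coordinates belong to the RefSeq promoters (GRCm38.p6), since the array files carry none.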

Additional observations from a re-analysis of the deposited data

Results flagged for a closer look

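The test of the difference between the effect of banding and the effect left 3 days after debanding, each against its sham, passed for Ech1. That is 1 of 31 members, where 3.45% of all genes were lower in this contrast and 2.59% higher. The log2 difference of Ech1 was -0.54 in AB against sAB and -0.15 in DB3 against sDB3, a difference of effects of -0.40 (limma adjusted p = 0.0489). All 3 AB arrays were below all 3 sAB arrays, and all 3 DB3 arrays below all 3 sDB3 arrays. The contrast contains the sAB arrays, which stand apart on the BioC control. Its adjusted p was 0.0137 to 0.139 over the settings that kept all 12 arrays, and the call was lost in 4 of these 8. It was also lost in 11 of the 12 fits that left out 1 array, highest adjusted p 0.108. In the fit of all probe sets Ech1 did not pass (adjusted p = 0.0552).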

How the results depend on the processing

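Of the 16 members lower in each AB comparison, 7 against sAB and 6 against sDB3 kept their call under every alternative run. With only the groups compared in the fit, which leaves fewer arrays for the spread, the members called were 10 in AB against sAB, 9 in AB against sDB3, 2 in DB3 against AB and 0 in sDB3 against sAB. Leaving out 1 array gave 8 to 17 calls in AB against sAB, 6 to 17 in AB against sDB3, 0 to 0 in DB3 against sDB3, 0 to 10 in DB3 against AB, 0 to 5 in the difference of effects and 1 to 3 in sDB3 against sAB. DB3 against sDB3 had 1 call with the filter at 6, 1 after averaging probe sets per gene, 3 after median centring and 1 with trend and robust moderation. The difference of effects had 4, 2, 0 and 6 under these settings, in that order, and 2 by an unmoderated linear model. In sDB3 against sAB the second brightest probe set gave 1 call, Etfdh, and the calls of Slc27a1, Hadh and Hsdl2 were lost.

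Etfdh turned to 0.0011 (adjusted p = 0.996) in AB against sAB with the mean of its probe sets and to 0.20 (adjusted p = 0.534) with the second brightest. In sDB3 against sAB it turned to 0.41 (adjusted p = 0.0243) and 0.82 (adjusted p = 0.0237). That second probe set is dim. A fit without the 3 sAB arrays, chosen after seeing the data, gave 13 calls in AB against sDB3, 0 in DB3 against sDB3 and 5 in DB3 against AB. The cause of these changes was not tested.

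Median centring moved the calls over all genes in DB3 against sDB3 from 560 higher and 104 lower to 127 and 348, in sDB3 against sAB from 573 and 1288 to 1058 and 481, and in the difference of effects from 270 and 360 to 430 and 153. Quantile normalization gave 107 and 92 in DB3 against sDB3, 919 and 727 in AB against sDB3, 713 and 735 in sDB3 against sAB, and 343 and 228 in the difference of effects. No paired analysis was possible because the labels carry no replicate numbers.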
